A study of Drosophila melanogaster with 10 samples.

Results

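The immune genes described here are 37 of the 11982 genes that the arrays measured under a single gene symbol. They were chosen by name as the peptidoglycan recognition proteins (PGRP), the Gram-negative binding proteins (GNBP), the thioester-containing proteins (Tep), the classical antimicrobial peptides, the Bomanins (Bom) and the Turandot genes (Tot). The naming rule uses no measured value. Other genes of these families were not matched to a probe set under a single symbol and are not covered. Among them are the receptor genes PGRP-LC, PGRP-SA, PGRP-SD and GNBP1. The peptide genes DptA, AttA, AttB, AttC, Dro, CecA1, CecA2 and CecC are also among them. By the sources used here, RNA came from heads of yw flies, the control strain of the study. Flies were sampled at 6 times of day (zeitgeber time, ZT), and the RNA was hybridised to 10 Affymetrix arrays. The tissue is given as labelled, and markers foreign to the head are described below. ZT15 and ZT3 were measured on 3 arrays each. The other times, ZT7, ZT11, ZT19 and ZT23, rest on 1 array apiece and have no replicate error. All flies share this genotype, and the sources used here give neither age, sex nor infection status. Nothing says that replicates came from separate cultures, so a p-value here reflects the spread among these arrays alone, which may be technical.

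Flies have no antibodies, and their defence against microbes rests on receptors that sense the cell wall and on secreted peptides. Peptidoglycan or glucan bound by PGRP and GNBP proteins starts the Toll and Imd pathways, which release NF-kappaB factors into the nucleus and switch on peptide genes. Drs, Mtk and the Bomanins are classical Toll targets, and DptB is a classical Imd target. The fat body, which also lies in the head, and blood cells make most of these peptides after infection, while gut and other lining tissues make some of them locally.

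Levels below are natural logs of the deposited values, which are likely GCRMA log2 values raised to the base e, so a difference of 1 is read as 2-fold. If the deposited values were plain intensities, log2 differences would be larger than those given, by 1.44 times. Levels of different genes come from different probes and are not set against each other. Of the 37 genes, 30 had a mean of at least 4 and were tested. The other 7 (PGRP-SB2, Tep5Psi, Drsl6, TotB, TotE, TotF and TotZ) lay between 1.91 and 4.69 on every array, and only their range is given. Each gene had 1 probe set. Those of PGRP-LB (_s_at), PGRP-LA and GNBP2 (both _a_at) carry suffixes by which the manufacturer marks probes that match several transcripts. Their levels are uncertain in that respect. Short, similar genes such as the Bomanins and the drosomycin-like genes may also share signal.

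The arrays fell by clustering into a set of 4 (replicates 2 and 3 of ZT15 and replicates 1 and 2 of ZT3) and a set of 6 (the first ZT15 array, the third ZT3 array and the 4 single times). Arrays of 1 set correlated at 0.968 to 0.992, and arrays of different sets at 0.720 to 0.830. Markers of the head were present on all arrays, with medians of 10.9 to 11.2 in the set of 4 and 11.1 to 11.6 in the set of 6 for 7 neuron genes. For 6 photoreceptor genes the medians were 13.7 to 13.9 and 13.5 to 14.1. Markers of testis and accessory gland, which are foreign to the head, were high in the set of 6 and low in the set of 4. The median of 12 testis genes was 3.96 to 5.97 in the set of 4 and 10.4 to 11.7 in the set of 6, and that of 11 accessory gland genes was 3.57 to 3.87 and 11.9 to 13.4. The sets were drawn from these same values, so differences between them are given below with no test. Several genes are named below as having no overlap between the sets. The share of all tested probe sets without such overlap was not counted, so this is not read as particular to those genes.

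Among the families with several tested genes, the antimicrobial peptide genes had the widest ranges from array to array. Over the 10 arrays, 9 of the 11 tested peptide genes had a range of over 2, as did 1 of 6 PGRP genes and the single tested Tot gene. None of the 2 GNBP, 2 Tep and 8 Bomanin genes tested did. Among all 12991 tested probe sets 21.9% had such a range. A range of over 1 was found in 15 of 30 immune genes, where 55.3% of all tested probe sets had one. Within the set of 4 it was found in 9 of 30, where 13.5% had one, and within the set of 6 in 7 of 30, where 21.9% had one. The median range was 3.57 for the peptide genes, 0.83 for PGRP, 0.74 for Bomanins, 0.73 for GNBP and 0.53 for Tep, beside 1.09 for all tested probe sets.

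**Figure D1:**
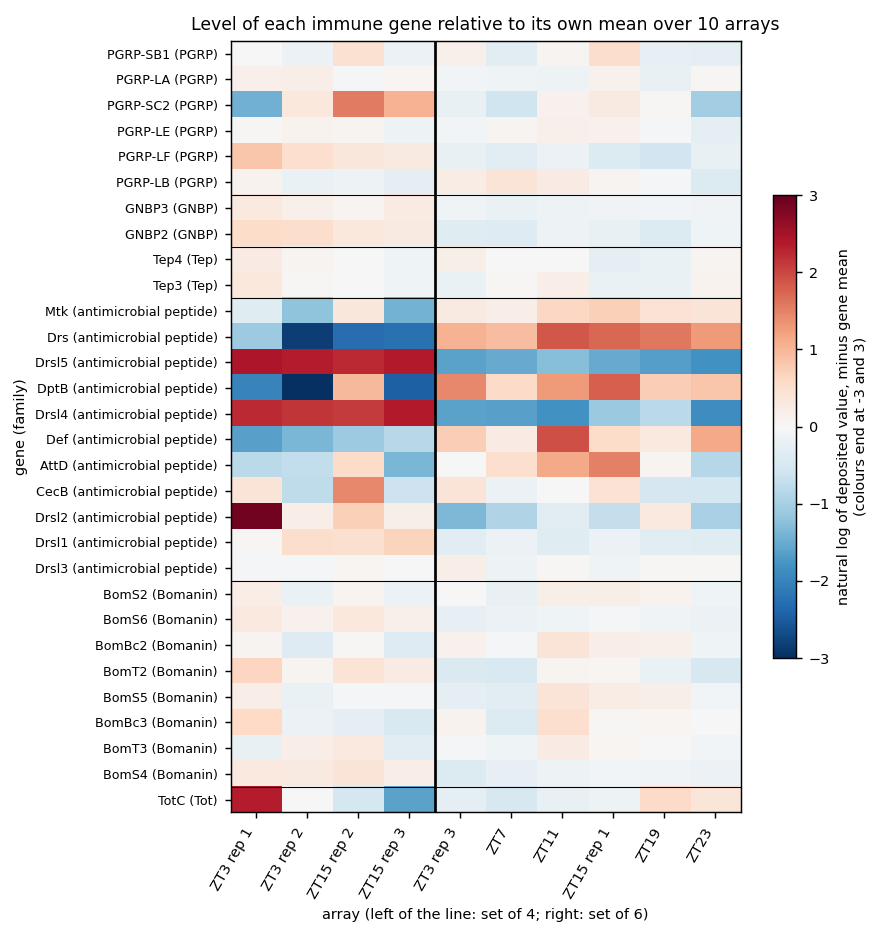
Level of the 30 tested immune genes on each of the 10 arrays (columns) as the natural log of the deposited value minus the gene's own mean; colour runs from -3 to 3 and the vertical line parts the set of 4 from the set of 6. Drs, DptB and Def are mostly below their means left of the line and Drsl4 and Drsl5 above theirs, while PGRP, GNBP, Tep and Bomanin rows stay pale apart from PGRP-SC2.

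Among the tested PGRP genes, PGRP-LE and PGRP-LA had the narrowest ranges, 0.44 and 0.42. PGRP-LE, an intracellular peptidoglycan sensor of the Imd pathway, lay between 8.58 and 9.02 on all arrays, and PGRP-LA between 10.12 and 10.35 in the set of 4 and between 9.93 and 10.27 in the set of 6. PGRP-LF, a membrane protein that dampens Imd signalling, was at 8.98 and 8.90 on the ZT15 arrays and at 9.48 and 9.14 on the ZT3 arrays of the set of 4. Across ZT3, ZT7, ZT11, ZT15, ZT19 and ZT23 in the set of 6 it was at 8.41, 8.30, 8.47, 8.22, 8.07 and 8.42. All 4 values of the set of 4 were above all 6 of the other set, by 0.81 between the means.

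PGRP-SB1, PGRP-LB and PGRP-SC2 encode amidases, which cut peptidoglycan, and those of PGRP-LB and PGRP-SC2 thereby limit the immune response. PGRP-SB1 was at 13.33 and 12.72 at ZT15 and at 12.90 and 12.71 at ZT3 in the set of 4, and at 13.04, 12.55, 12.98, 13.41, 12.64 and 12.59 in time order in the set of 6. Its highest value in each set fell on a ZT15 array. PGRP-LB was at 8.47 and 8.37 at ZT15 and at 8.75 and 8.43 at ZT3 in the set of 4. The set of 6 had, in time order, 8.86, 9.02, 8.88, 8.73, 8.61 and 8.23, highest at ZT7 and lowest at ZT23.

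PGRP-SC2, an amidase gene known for its expression in the gut, had the widest range of the PGRP genes, 2.99. It was at 11.19 and 10.68 on the ZT15 arrays and at 8.20 and 9.95 on the ZT3 arrays of the set of 4. In time order the set of 6 gave 9.42, 9.04, 9.78, 9.91, 9.67 and 8.60, highest again at ZT15. Both sets placed ZT15 above ZT3, but the ZT3 arrays of the set of 4 lay 1.75 apart, and over all 6 arrays the times overlapped. Of 8 gut genes measured, mainly those of digestive enzymes, none had a mean under 4. Their summed level on the log2 scale was 15.2 to 16.2 in the set of 4 and 15.6 to 16.5 in the set of 6. On the 2 ZT15 arrays of the set of 4 it was 16.2 and 15.4, and on the ZT3 arrays 15.2 and 15.9. The part of gut RNA in the values of PGRP-SC2 was not tested.

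GNBP3, a sensor of fungal glucans that feeds the Toll pathway, and its relative GNBP2 were both higher in the set of 4 with no overlap. GNBP3 lay between 10.22 and 10.45 there, against 9.93 to 10.07 in the set of 6, and the means differed by 0.31. GNBP2 was at 9.90 and 9.87 at ZT15 and at 10.14 and 10.13 at ZT3 in the set of 4, against 9.19 to 9.46 in the set of 6, and the means differed by 0.69. The complement-like Tep3 and Tep4 differed between the sets by 0.11 and 0.09. Tep3 was at 8.72, 8.93 and 8.79 at ZT15 and at 9.24, 8.96 and 8.71 at ZT3, so the times overlapped. Tep4 was at 12.22, 12.49 and 12.36 at ZT15 and at 12.75, 12.59 and 12.68 at ZT3, so that every ZT15 array was below every ZT3 array, by a small margin. It was the single tested immune gene without overlap between the times, 1 of 30, where 5.13% of all tested probe sets had none.

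Between the array sets some of the 11 tested peptide genes differed widely, in both directions. By over 2, the set of 4 was lower for Drs, DptB and Def and higher for Drsl4 and Drsl5; that is 3 and 2 of 30 tested genes. The share of all tested probe sets was 11.2% for lower and 1.73% for higher, so the count of lower genes was near that share. The other tested peptide genes differed by less than 2. The drosomycin gene Drs, an antifungal peptide gene, was at 10.65 and 10.71 at ZT15 and at 11.86 and 10.12 at ZT3 in the set of 4. The set of 6 stood at 13.99, 13.88, 14.82, 14.67, 14.53 and 14.23 in time order. The sets did not overlap, and the means were 10.84 ± 0.73 (SD, n = 4) and 14.35 ± 0.38 (SD, n = 6), a difference of -3.52 or 11.4-fold.

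Def, the defensin gene, whose product acts mainly on Gram-positive bacteria, followed Drs between the sets. It lay between 7.41 and 8.22 in the set of 4 and between 9.30 and 10.98 in the set of 6, with its maximum at ZT11. The means differed by -2.04, or 4.12-fold, and there was no overlap; the gene was named after its values were seen. Mtk, the metchnikowin gene, was at 14.30 and 12.52 at ZT15 and at 13.58 and 12.75 at ZT3 in the set of 4, against 14.23, 14.15, 14.57, 14.66, 14.39 and 14.32 in time order in the set of 6. Replicate 2 of ZT15 thus reached the values of the other set, and the remaining 3 arrays did not.

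DptB, which encodes a diptericin active against Gram-negative bacteria, had the widest range of the 37 genes, 4.97 or 31.4-fold. It was at 12.21 and 8.80 on the ZT15 arrays and at 9.23 and 8.06 on the ZT3 arrays of the set of 4. Those of the set of 6 held 12.67, 11.81, 12.52, 13.04, 11.98 and 12.07 in time order. The second ZT15 replicate was the single array of the set of 4 within the range of the set of 6. The means of the sets were 9.57 ± 1.82 (SD, n = 4) and 12.35 ± 0.47 (SD, n = 6).

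Drsl4 and Drsl5, 2 drosomycin-like genes, went the other way. Drsl4 was at 12.80 and 13.07 at ZT15 and at 12.92 and 12.84 at ZT3 in the set of 4, against 9.08, 9.06, 8.87, 9.57, 9.88 and 8.83 in time order in the set of 6. Drsl5, named here after its values were seen, was at 14.29 and 14.43 at ZT15 and at 14.48 and 14.39 at ZT3, against 10.43, 10.54, 10.77, 10.53, 10.39 and 10.24. Their ranges were 0.27 and 0.19 in the set of 4 and 1.05 and 0.53 in the set of 6, and between the sets they differed by 3.69 (12.9-fold) and 3.91 (15.1-fold). In the reference gene order Drsl2, Drsl3, Drsl4 and Drsl5 are a run of 4 neighbours with no other protein-coding gene or pseudogene between them. Their neighbour Drsl3 was low and flat, between 4.14 and 4.49 on all arrays, with a difference of -0.01 between the sets. Drsl2 lay between 5.29 and 8.0 in the set of 4 and between 3.77 and 5.40 in the set of 6, and its top value came from the first ZT3 replicate. Both neighbours were named after their values were seen.

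**Figure D2:**
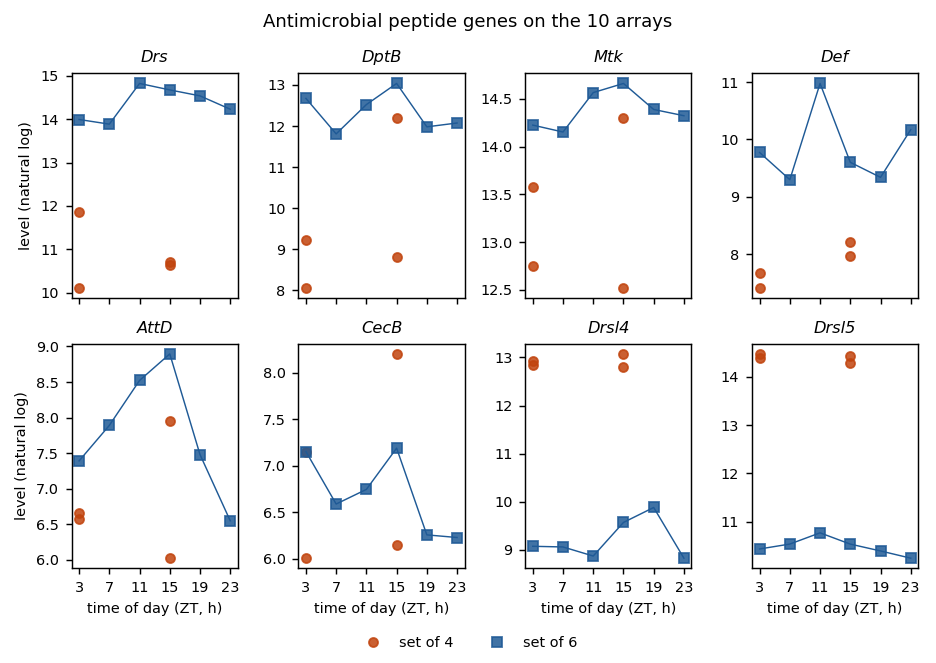
Levels (natural log of the deposited value, vertical axis, scaled per gene) of 8 antimicrobial peptide genes against time of day; each circle is an array of the set of 4 and each square an array of the set of 6, joined in time order. Drs and Def lie lower and Drsl4 and Drsl5 higher in the set of 4 at both shared times, and 1 ZT15 circle stands far above the other in DptB, Mtk, AttD and CecB.

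In bulk RNA, fewer cells of a type and less RNA per cell cannot be told apart, and the array sets also differed in tissue markers. Over all tested probe sets the median difference was 0.18 (set of 4 minus set of 6), so most of them were higher in the set of 4. Of 8 fat body genes measured, 8 were higher in the set of 4; their summed level on the log2 scale was 17.6 to 17.8 there and 17.3 to 17.5 in the set of 6, and Fbp1 alone had a mean under 4. Of 10 blood cell genes, 7 were higher in the set of 4, with summed levels of 13.3 to 13.5 and 13.0 to 13.3. Such a sum weighs the genes of highest level most. By gene, He, NimC1, Sr-CI and eater differed by 2.31, 1.77, 1.33 and 1.06, while vkg and Col4a1 each differed by -0.52. Of 8 gut genes, 2 were higher in the set of 4. Of 12 testis genes 0 were higher there, and of 11 accessory gland genes 1 was. The part of these tissues in the levels of Drs, DptB, Def, Drsl4 and Drsl5 was not tested.

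Arrays of the same time within the set of 4 also differed in peptide genes. Replicates 2 and 3 of ZT15 lay over 1 apart for 5 of 30 tested immune genes, where 4.64% of all tested probe sets did. These were DptB (3.40, 10.6-fold), CecB (2.06), AttD (1.93), Mtk (1.77) and TotC (1.09). In all 5 the second replicate was the higher. CecB, a cecropin gene, was at 8.20 on that array and at 6.14 on the third, and AttD, an attacin gene, at 7.95 and 6.02. Drs was not among them, with a gap of 0.06 between the same arrays.

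The first and second ZT3 replicates lay over 1 apart for 6 of 30, where 3.81% of all tested probe sets did. Here the genes were Drsl2 (2.69), TotC (2.36), PGRP-SC2 (1.75), Drs (1.74), DptB (1.16) and CecB (1.14). The first replicate was the higher for all but PGRP-SC2. TotC, a Turandot gene whose secreted product accumulates under stress, was at 10.06 and 8.97 at ZT15 and at 12.93 and 10.57 at ZT3 in the set of 4, against 10.32, 10.10, 10.36, 10.43, 11.15 and 10.94 in time order in the set of 6. Its range within the set of 4, 3.96, was thus as wide as over all arrays.

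Each gene's highest array was counted within each set. In the set of 4 this was ZT15 replicate 2 for 10 of 30 tested genes and ZT15 replicate 3 for 3, against ZT3 replicate 1 for 15 and ZT3 replicate 2 for 2. Over all tested probe sets the shares in the same order were 20.7%, 24.6%, 29.6% and 25.1%. For the 6 arrays of the other set, in time order from ZT3 to ZT23, the counts were 2, 1, 11, 11, 4 and 1 of 30, where the shares of all tested probe sets were 8.53%, 12.6%, 22.6%, 15%, 11.9% and 29.2%. In the set of 6, 22 of the 30 immune genes were thus highest at ZT11 or ZT15. Among the 8 Bomanins the ZT11 and ZT15 arrays accounted for all maxima of the set of 6, with 5 at ZT11 and 3 on the ZT15 array. The ZT11 array also stood apart in eggshell and ovary genes, with a median of 8.09 over 10 genes, against 3.76 to 3.98 on the other arrays of the set of 6. The eggshell gene Cp15 was itself high on the third ZT3 array, at 12.3. The part of ovary RNA in the ZT11 values of the immune genes was not tested.

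The Bomanins, short secreted peptides needed for Toll-mediated resistance, were steady beside the classical peptides. Their ranges over 10 arrays ran from 0.41 for BomS2 to 1.13 for BomT2, and none of the 8 differed between the sets by over 1, where 26.2% of all tested probe sets did. BomS2 was at 14.66, 14.55 and 14.29 at ZT15 and at 14.66, 14.29 and 14.47 at ZT3. BomT2 was at 13.95 and 13.79 at ZT15 and at 14.19 and 13.63 at ZT3 in the set of 4, against 13.06 to 13.63 in the set of 6. BomS5 lay between 12.92 and 13.31 in the set of 4 and between 12.80 and 13.52 in the set of 6, so neither set stood above the other. BomBc3 was at 12.86, 12.54 and 12.36 at ZT15 and at 13.42, 12.64 and 12.93 at ZT3, with overlap. BomS4, BomS6 and BomT2 had higher means in the set of 4, by 0.48, 0.37 and 0.59. BomS4 lay between 11.31 and 11.48 in the set of 4 and between 10.69 and 11.02 in the set of 6, and BomS6 between 14.19 and 14.38 and between 13.81 and 14.00, both with no overlap. In the reference order 6 of the 8 measured Bomanins sit in a run of 10 neighbouring Bomanin genes, and BomT3 and BomBc3 form a pair elsewhere. Within that run the differences between sets spanned -0.28 for BomBc2 to 0.59 for BomT2.

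By the zeitgeber convention ZT15 falls in the night and ZT3 in the day, and their comparison asks whether immune transcripts differ by phase of the day. No immune gene passed the test: 0 of 30 had an adjusted p under 0.05 (limma), where 0.0308% of all tested probe sets passed, and 0 of 30 had an unadjusted p under 0.05, where 1.81% did. In the fit with an array set block, 0 of 30 passed, where 0.154% did, and 1 of 30 (Tep4) had an unadjusted p under 0.05, where 9.6% did. The median difference was 0.02 over the 30 genes and 0.01 over all tested probe sets. Differences were above 0 for 18 of 30 genes and for 6677 of 12991 tested probe sets. Both sets hold the 2 times equally, so the block changes the errors and leaves the differences as they are. Standard errors of differences below come from the fit with the block. The lowest adjusted p of the 30 genes was 0.9999 without the block and 0.48 with it (limma).

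**Figure D3:**
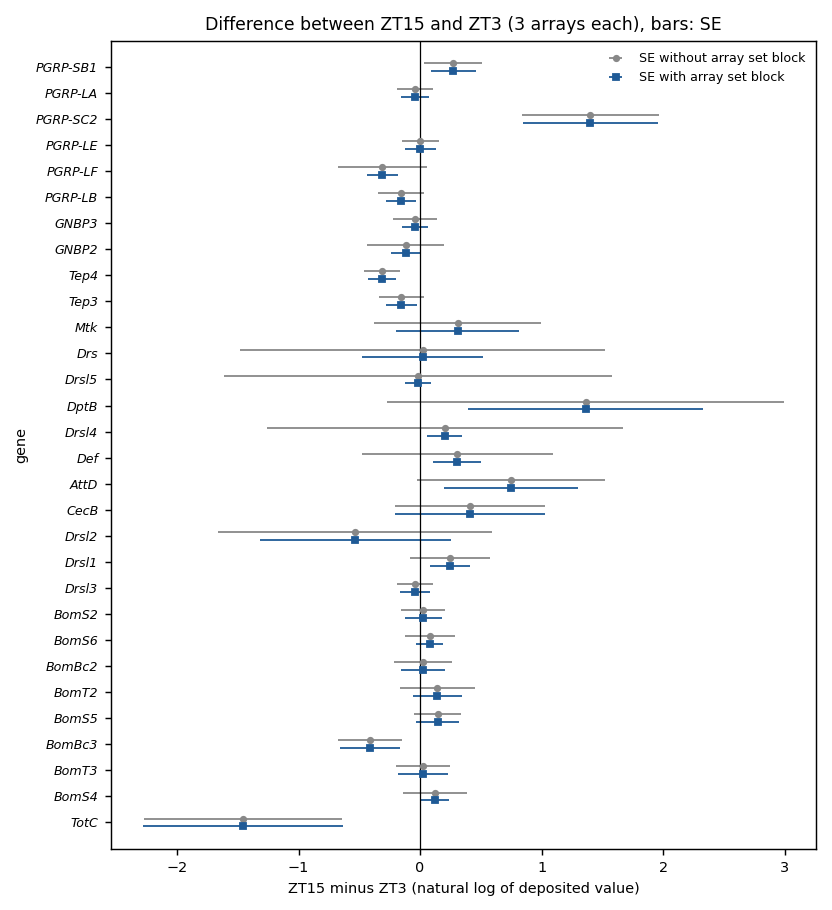
Difference between ZT15 and ZT3 (3 arrays each) of the 30 tested immune genes on the natural log scale; circles carry the standard error without, and squares with, the array set as a block. PGRP-SC2 (1.40) and DptB (1.36) lie farthest to the right and TotC (-1.46) farthest to the left, and the error bars of Drs, Drsl4 and Drsl5 are much shorter with the block.

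The widest differences belonged to genes with wide errors. PGRP-SC2 averaged 10.59 ± 0.65 at ZT15 and 9.19 ± 0.90 at ZT3 (SD, n = 3 each), a difference of 1.40 ± 0.55 (SE with the block) with an adjusted p of 0.52 (limma with the block). The difference was 1.86 within the set of 4 and 0.48 within the set of 6. DptB averaged 11.35 ± 2.24 at ZT15 and 9.99 ± 2.40 at ZT3, a difference of 1.36 ± 0.97, and 1.86 and 0.36 within the sets. TotC averaged 9.82 ± 0.76 at ZT15 and 11.28 ± 1.44 at ZT3, a difference of -1.46 ± 0.82, which was -2.24 within the set of 4 and 0.10 within the set of 6. The sign of TotC thus differed between the sets.

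AttD differed by 0.75 ± 0.55 and PGRP-LF by -0.31 ± 0.13, each with the same sign in both sets. Tep4 averaged 12.36 ± 0.14 at ZT15 and 12.67 ± 0.08 at ZT3, a difference of -0.31 ± 0.11 that was -0.24 and -0.46 within the sets; its adjusted p was 0.48 (limma with the block). Drs, a common readout of Toll signalling, differed by 0.02 ± 0.50, and by -0.31 and 0.68 within the sets. In all, 14 of the 30 genes had the same sign within both sets, where 52.1% of all tested probe sets did.

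The 24-hour cosine fit asks whether these transcripts cycle through the day. Again 0 of 30 passed, where 0.0385% of all tested probe sets did, and 0 of 30 passed with the array set block, where 0.508% did (limma, F test). An unadjusted p under 0.05 was reached by 1 of 30 without the block (PGRP-SC2), where 1.61% did, and by 3 of 30 with it (PGRP-SC2, PGRP-LB and Tep4), where 7.91% did. The lowest adjusted p of the 30 genes was 0.999996 without the block and 0.52 with it (limma, F test). The median amplitude, by which the fitted peak exceeds the fitted mean, was 0.15 over the 30 genes and 0.13 over all tested probe sets.

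AttD had the largest amplitude, 0.81 ± 0.31 (SE with the block), with a fitted peak at ZT11.1 and an adjusted p of 0.68 (limma with the block). Arrays of the set of 6 gave 7.39, 7.89, 8.52, 8.90, 7.48 and 6.55 in time order, with a single maximum at ZT15. The set of 4 had 7.95 and 6.02 at ZT15 and 6.58 and 6.66 at ZT3, so that 1 ZT15 array lay above both ZT3 arrays and the other below them. TotC had an amplitude of 0.76 ± 0.40 with a fitted peak at ZT0.413. PGRP-SC2 followed with 0.75 ± 0.22, a fitted peak at ZT14.2 and an adjusted p of 0.52 (limma with the block). PGRP-LB had 0.31 ± 0.10 and a peak at ZT8.38, and Tep4 0.15 ± 0.05 and a peak at ZT3.72, both with an adjusted p of 0.59 (limma with the block). In the set of 6 alone the amplitudes of TotC and PGRP-SC2 were both 0.49, and without the ZT23 array that of PGRP-LB was 0.19 (fit with the block). Among the Bomanins BomT2 had the largest amplitude over all arrays, 0.15. In the set of 6 alone it was 0.32, below the 0.33 of BomS5. The amplitude of BomBc3, 0.11, ran from 0.017 without ZT3 replicate 1 to 0.34 without the ZT7 array (fit with the block).

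**Figure D4:**
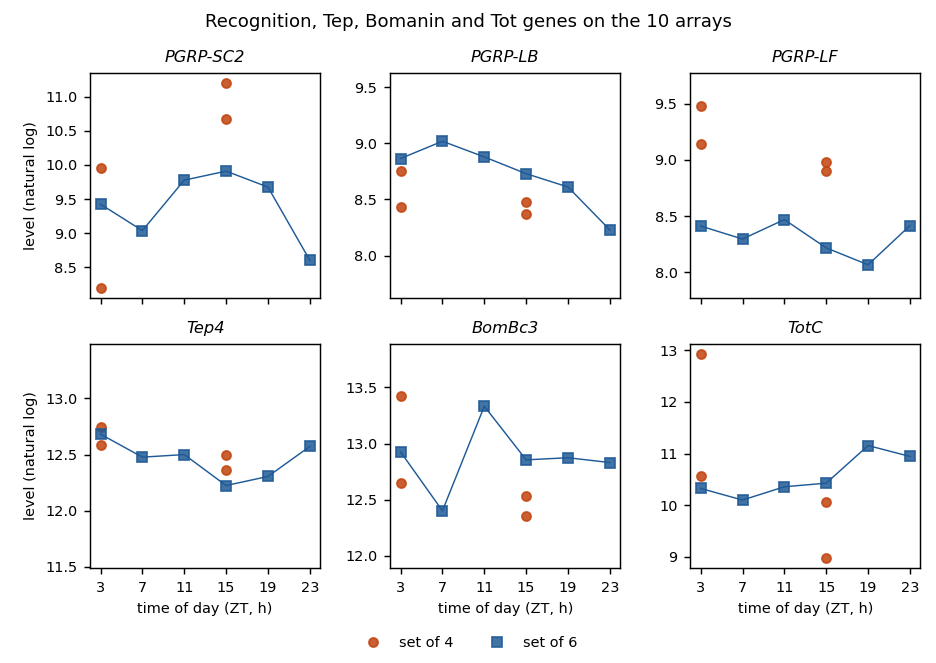
Levels (natural log of the deposited value, vertical axis, scaled per gene and spanning at least 2 units) of 6 genes of the PGRP, Tep, Bomanin and Tot families against time of day; circles are arrays of the set of 4 and squares, joined in time order, those of the set of 6. PGRP-SC2 is higher at ZT15 than at ZT3 in both sets but with circles far apart at ZT3, and the first ZT3 replicate stands alone at 12.93 in TotC.

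Genes that carry the signal from receptor to peptide were read from 4 further lists. Between ZT15 and ZT3 no gene passed in either direction, with or without the block, for the Toll pathway (0 of 14), the Imd pathway (0 of 17), the Jak-Stat pathway (0 of 5) or other induced immune genes (0 of 11). The share of all tested probe sets that passed was 0.0308% without and 0.154% with the block, so counts of 0 in lists of this size say nothing particular about them. The median difference between ZT15 and ZT3 was 0.01, 0.09, 0.03 and -0.06 for these lists in turn. In the Imd pathway, dnr1, which encodes an inhibitor of Imd signalling, differed by 0.86 ± 0.12 (SE with the block). Its adjusted p was 0.13 with the block and 0.9999 without it (limma). The gene key, for a subunit of the kinase complex that activates Relish, differed by 0.17. In the Toll pathway, the NF-kappaB gene dl differed by -0.40 and the protease gene spirit by 0.19. Among the other induced immune genes, the antibacterial peptide gene Listericin differed by 0.35 and IM33 by 0.24. The widest difference of that list was that of cad, named after its values were seen, at -0.87 ± 0.26 (SE with the block). It was -1.16 within the set of 4, where cad lay near the filter of 4, between 3.87 and 5.47, and -0.29 within the set of 6. Its adjusted p was 0.41 (limma with the block). Stat92E, the transcription factor of the Jak-Stat pathway, differed by 0.14 and Su(var)2-10, whose product inhibits it, by 0.11.

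Between the array sets, genes upstream of the peptides were compared with no test. Rel, which encodes the NF-kappaB factor of the Imd pathway, differed by -0.50 (set of 4 minus set of 6), and dl by 0.11. SPE, the protease that cuts the Toll ligand, differed by 0.64. Of the genes with larger differences, edin, an induced secreted peptide gene, was at -2.33 and cad, whose product limits peptide expression in the gut, at -4.08. In the set of 4 the mean of cad was 4.57, near the filter of 4. The melanisation genes PPO1 and PPO2, made by crystal cells of the blood, were higher in the set of 4 by 2.13 and 1.88. Apart from dl, the genes of this paragraph were chosen after their values were seen.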

How the data were processed

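Intensities were deposited by the authors, 1 for each probe set on each array. They were made with GCRMA, per the submitters' processing notes, in a version not given in the sources used. Deposited intensities run up to 8527865, above the 65536 levels of a 16-bit scanner, and the natural log of the largest is 15.96. The natural log was therefore read as a GCRMA log2 value. Of 18769 probe sets other than 183 controls, 13647 had 1 gene symbol in the platform annotation, 402 several and 4720 none here; 2 probe sets that name an immune gene beside another gene were left out. All 37 genes matched the reference gene table (Release 6), which served for names and neighbours only. The 12991 probe sets whose mean reached 4 were fitted with limma 3.58.1 in R 4.3.3 (lmFit, eBayes, Benjamini-Hochberg over all of them, threshold 0.05). ZT15 was set against ZT3 over 6 arrays, and the 24-hour cosine used all 10. The array sets come from average-linkage clustering on correlation, cut at 2 clusters. The number of arrays limits the precision: the median residual SD was 0.372 without an array set block and 0.176 with one. Replicate numbers were not taken as pairing samples. Deviations of same-numbered arrays correlated at -0.893, 0.804 and -0.903, and only the arrays of replicate 2 share an array set. These signs follow the array sets, so the correlations cannot show whether the numbers pair samples. Genes with values in the text are, per family, the 3 of widest range, the 2 of highest mean and the 2 of smallest p per fit; others are given by range or were named after their values were seen. Members and lists were chosen with earlier results of these data known. The fits were tested on simulated data. Alternatives covered the filter, scale, pseudocount, normalization, variance prior, blocks and left-out arrays. No sequence is printed, since none was used here.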

Additional observations from a re-analysis of the deposited data

How the results depend on the processing

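The count of immune genes past the threshold was 0 in all 24 fits of ZT15 against ZT3 and in all 31 fits of the rhythm, the reported ones included (limma), with at most 3 and 5 genes at an unadjusted p under 0.05. With the replicate number as a replicate block it was 0 as well. Of all 12991 tested probe sets, 0 passed in that fit. The same held for each fit of ZT15 against ZT3 without 1 array and without the array set block. In the reported fits 4 passed for ZT15 against ZT3 and 5 for the rhythm, and 20 and 66 with the block. With so few calls, counts of 0 among 30 genes say nothing particular about the immune genes. For the unadjusted counts of 3 and 5, no share of all tested probe sets is given. Over the alternatives for 22 named genes, the lowest adjusted p was 0.25 for a difference (Tep4, array set block with trend and robust variance) and 0.098 for an amplitude (AttD, array set block without the third ZT15 replicate). Of 550 alternative differences, 49 had the other sign, in 14 genes, none of them called. After quantile normalization BomS2 was at -0.0307 and Drs at -0.00144. Within the set of 4 BomS2, BomS5, BomT2 and Drs were at -0.0539, -0.0431, -0.0343 and -0.308. Within the set of 6 GNBP2, GNBP3, PGRP-LA, Tep3 and TotC were at 0.132, 0.0115, 0.196, 0.0108 and 0.102. Without 1 array, with or without the block, BomS2 ran from -0.0683 to 0.157, BomS4 from -0.113 to 0.245, BomS5 from -0.0431 to 0.310, BomS6 from -0.0702 to 0.193, BomT2 from -0.123 to 0.416, CecB from -0.230 to 0.945, Drs from -1.31 to 1.02, Drsl4 from -1.07 to 1.32, GNBP2 from -0.417 to 0.0509, GNBP3 from -0.154 to 0.0543, Mtk from -0.180 to 0.961 and PGRP-LA from -0.161 to 0.0174. The causes were not tested. Each gene had 1 probe set, so no other probe set could be tried.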
